A study of Mus musculus with 7 samples.

Results

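The genes described here are 36 genes that neurons use for their cytoskeleton, for release of transmitter, for adhesion at synapses, for making or sensing transmitters and for controlling neuronal identity. They were taken by name from a table of 55423 features, which holds the read counts of bulk tumour RNA after depletion of ribosomal RNA. The tumours were cutaneous squamous cell carcinomas (cSCC) of mice, and the question was whether SOX2 overexpression moved these genes in them. All tumours came from mice carrying a tamoxifen-inducible Cre recombinase under the promoter of involucrin (Ivl), a gene of committed and suprabasal epidermal cells, and a BRAFV600E allele that Cre turns on. The Ivl:BRAFV600E group had no further allele, whereas the Ivl:BRAFV600E-SOX2LSL group also carried the Rosa26 LSL-SOX2-IRES-eGFP allele, which expresses SOX2 and a green fluorescent reporter after recombination. Both groups received topical tamoxifen at 7 to 10 weeks of age according to the labels, and tumours were taken at clinical endpoint. The labels name 4 Ivl:BRAFV600E and 3 Ivl:BRAFV600E-SOX2LSL tumours, of which 3 per group were used, each from another mouse. In Ivl:BRAFV600E (tumours A, B and C) 2 came from females and 1 from a male. In Ivl:BRAFV600E-SOX2LSL (tumours D, E and F) 1 came from a female and 2 from males. The letters are names only. All Ivl:BRAFV600E-SOX2LSL tumours were collected sooner after induction than the Ivl:BRAFV600E tumours, so time since induction and genotype cannot be told apart.

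Neurons keep their axons wide with neurofilaments, release transmitter when calcium binds synaptotagmins at a site organised by RIM proteins, and sense glutamate and GABA through receptor channels. In the skin such genes are mostly known from sensory nerve endings, whose cell bodies, and so most of whose RNA, lie outside the skin, and from Merkel cells, the touch receptors of the epidermis. SOX2 is known as a factor of neural progenitors, where it is needed to keep them undifferentiated.

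In these tumours the list held genes at 3 counts or fewer in every tumour without SOX2 and above that in at least 1 tumour with it, genes with counts in both groups, and genes at or near the limit of detection throughout. Of the 36 genes 24 had enough reads to be tested, and 4 passed the test as higher with SOX2, namely Nefl, Rims2, Ncam1 and Gad2. They are 11.1% of the list and 16.7% of its tested genes, and 2.39% of all 24433 genes tested were called in that direction (3.90% in either direction). Nefl and Gad2 entered the test only through their counts in the tumours with SOX2, so these shares are a description. No gene of the list was called lower, against 1.51% of all genes tested. By edgeR 0 of them were lower at an unadjusted p under 0.05 too, while DESeq2 and limma-voom each called 0 and had 1 at an unadjusted p under 0.05. The 4 calls were fragile: leaving out tumour A, B, C or E left 0 of them, leaving out F left Nefl alone, and leaving out D kept all 4 and added Rims4 and Stmn2. Limma-voom and sex as a covariate, which is unevenly spread over the groups, also left 0 of the 4.

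The label of the list was not borne out as a whole. A total of 9 genes, given here with their highest count in any tumour, stayed at 3 counts or fewer in all 6 tumours: Dcx (0), Otx2 (0), Elavl4 (0), Neurod1 (1), Elavl3 (1), Snap25 (2), Gad1 (2), Nlgn1 (3) and Grin2b (3). They include doublecortin (Dcx) of migrating young neurons, the neuronal RNA-binding proteins Elavl3 and Elavl4, and Snap25, the membrane fusion protein of synaptic terminals, which are defining markers of neurons. Another 3, Syt1, Ncam2 and Gria2, reached 4 counts and no more. Of all features in the table, 53.7% stayed at 3 counts or fewer, against 25% of the list.

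The libraries held 23565432 to 31152826 counts on genes, and the 3 counts up to which a count of 0 leaves the true level uncertain corresponded to 0.0839 to 0.143 CPM (counts per 1 M counts on genes after TMM scaling). Intervals and limits given here cover counting error only. Sox2 stood at 0.716, 0.508 and 0.238 CPM in A, B and C and at 182, 155 and 158 CPM in D, E and F, and EGFP had 0 counts in each Ivl:BRAFV600E tumour and 139, 110 and 113 CPM in D, E and F, so both follow the labelled genotypes. Tumour D stood apart from E and F: the summed level of 8 keratinocyte markers was 14029 CPM in D against 50820 and 46403 CPM in E and F and 85658 to 131629 CPM in A to C, a sum carried by Krt1, Krt10 and Krt14, while Trp63 was at 281 CPM in D and 261 to 321 CPM in the other tumours. Skeletal-muscle markers summed to 3257, 3744 and 853 CPM in D, E and F and to 10.8 to 26.3 CPM in A to C. In bulk tumour RNA fewer cells of a type and less RNA per cell cannot be told apart. The part of either in the results below was not tested, and values without D are given beside the main results.

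**Figure D1:**
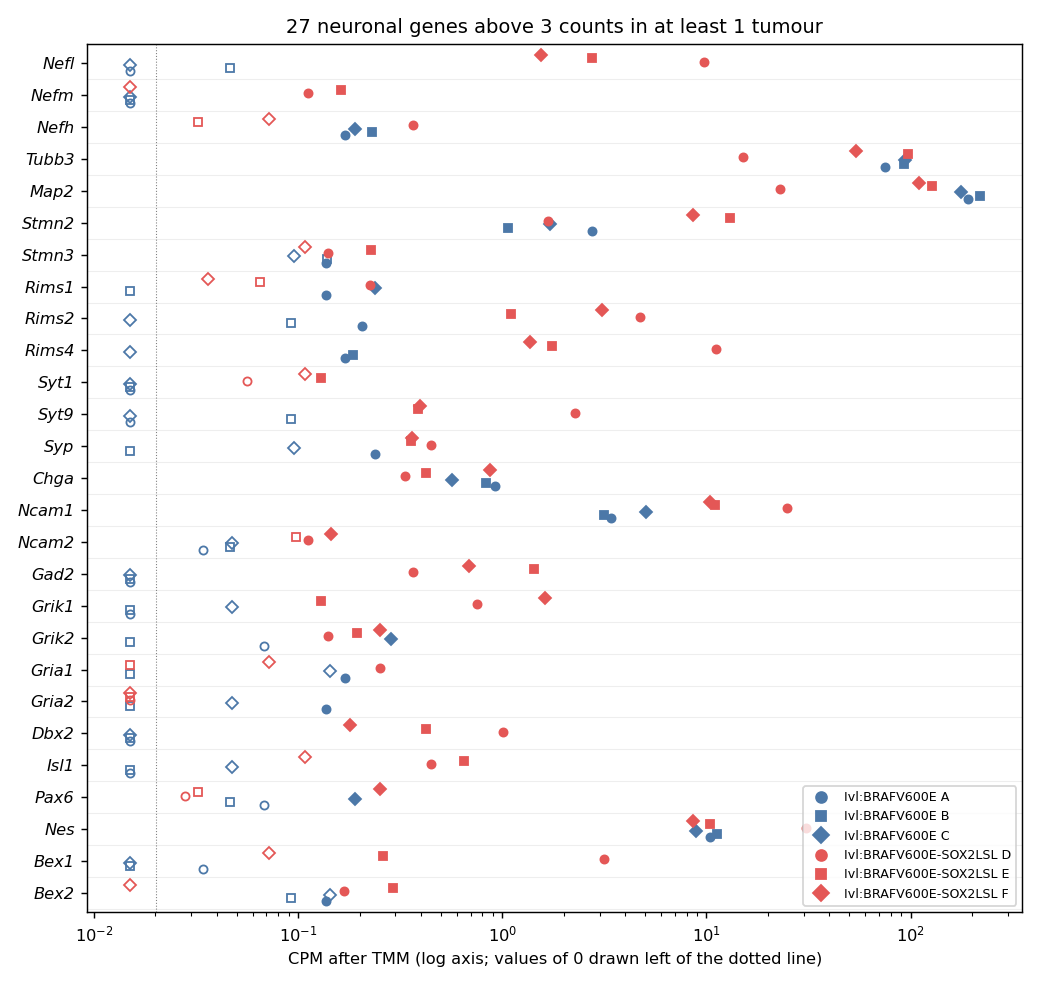
CPM after TMM scaling, on a log axis, of the 27 neuronal genes above 3 counts in at least 1 tumour. Blue marks are the 3 Ivl:BRAFV600E tumours and red marks the 3 Ivl:BRAFV600E-SOX2LSL tumours, open marks stand for 3 counts or fewer, and marks left of the dotted line are values of 0. Tubb3 and Map2 have the highest mean in both groups, Nefl, Gad2, Dbx2 and their like are at 0 or open in blue and filled in red, and the red circle (tumour D) is the highest of the red marks for 12 genes.

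Promoters were looked at because 10 genes of the list were at 3 counts or fewer in every Ivl:BRAFV600E tumour and above 3 counts in at least 1 tumour with SOX2. RefSeq windows of the 250 bases before the transcript start (GRCm38.p6) matched 25 of the 36 genes by symbol, in 35 windows. Gria1, Grik1, Grin2b, Ncam1, Nefh, Nefl, Nefm, Rims2, Rims4, Snap25 and Stmn2 had no entry. The letters searched, on both strands, were the SOX core ACAAAG or ACAATG, and TTCAGCACC and GGACAGCGC, the left and right arms of RE1, the element bound by REST, a repressor of neuronal genes. The 4 sequences below show the one called gene with a window, Gad2, and 3 others, picked with their values known, of the 7 genes with a window that were at 3 counts or fewer in every tumour without SOX2 and above that in at least 1 tumour with SOX2. Syt1, Syt9 and Ncam2 are the rest of the 7 and are not shown. They run 5′ to 3′ on the strand of the gene, and capitals mark a match. Those of Isl1 and Bex1 hold none. The stretches are parts of the windows: that of Gad2 runs from 250 to 123 bases before the RefSeq start and that of Dbx2 from 36 to 7, while those of Isl1 and Bex1 end 2 bases and 1 base before it. The Dbx2 stretch lies inside the span of the GENCODE gene.
Gad2, chr2:22622077-22622204, plus strand: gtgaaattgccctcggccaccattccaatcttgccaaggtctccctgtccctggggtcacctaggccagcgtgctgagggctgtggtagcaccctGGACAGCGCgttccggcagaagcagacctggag
Dbx2, chr15:95654778-95654807, minus strand: ttCATTGTtggccgcatctgtcaCTTTGTg
Isl1, chr13:116309690-116309938, minus strand: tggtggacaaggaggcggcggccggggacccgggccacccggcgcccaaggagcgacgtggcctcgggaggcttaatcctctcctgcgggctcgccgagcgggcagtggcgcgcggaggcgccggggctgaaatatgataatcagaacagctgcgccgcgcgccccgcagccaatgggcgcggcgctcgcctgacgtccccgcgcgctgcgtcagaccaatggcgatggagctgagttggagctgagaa
Bex1, chrX:136215514-136215763, minus strand: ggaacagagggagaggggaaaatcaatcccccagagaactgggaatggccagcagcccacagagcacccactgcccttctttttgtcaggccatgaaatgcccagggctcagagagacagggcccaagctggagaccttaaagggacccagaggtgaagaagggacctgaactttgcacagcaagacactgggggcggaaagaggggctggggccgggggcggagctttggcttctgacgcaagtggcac

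The Gad2 window held the right arm of RE1 between 155 and 147 bases before the RefSeq start, and Dbx2 held a SOX core from 34 to 29 and another from 13 to 8 bases before it. The SOX core was found in 9 of the 35 windows of the list (25.7%) and in 25.2% of all 32851 windows, and in 2 of the 8 windows of the genes above 3 counts only with SOX2, those of Dbx2 and Syt1. The right arm of RE1 was in 2 windows of the list, those of Gad2 and Gria2, and in 0.304% of all windows. The left arm was in 1 window, that of Nlgn1, and in 0.301% of all windows. These matches describe letters only.

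Among the 8 genes of the neurofilaments and neuronal cytoskeleton, Nefl was called. Nefl, the light neurofilament chain (ENSMUSG00000022055, chr14:68083863-68089095, plus strand), had 0, 1 and 0 counts in A, B and C and 349, 85 and 43 counts in D, E and F, or 9.76, 2.75 and 1.55 CPM in the latter. The groups did not overlap, and D held the highest level, 6.29 times that of F. Pooled over the tumours, the ratio of SOX2 to no SOX2 was 364, with a 95% exact counting interval of 65.1 to 14417 that rests on 1 count in the lower group, in B. Without D the ratio was 157 (27.8 to 6265). The difference passed the test (edgeR quasi-likelihood test, adjusted p = 0.0254; adjusted p = 0.00805 without D and up to 0.126 without another tumour). Its partner chains were at a few counts and were not called. Nefm, the medium chain, had 0 counts in A, B and C and 4, 5 and 0 in D, E and F (adjusted p = 0.247). Nefh, the heavy chain, had 5, 5 and 4 counts against 13, 1 and 2 (adjusted p = 0.871). The exons of Nefl and Nefm overlap on opposite strands in GENCODE M21, and the strand setting of the counting is not given in the sources used here.

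Stmn2, a stathmin that binds tubulin in growing axons, lay above the Ivl:BRAFV600E tumours in E and F but not in D. It stood at 2.76, 1.06 and 1.71 CPM in A, B and C and at 1.68, 13.1 and 8.60 CPM in D, E and F, so that D lay within the Ivl:BRAFV600E range. The log2 fold change was 2.07 ± 0.72 (SE) and missed the threshold (adjusted p = 0.133), whereas without D it was 2.54 ± 0.40 (adjusted p = 0.0170). Its relative Stmn3 had 2 to 7 counts in every tumour (adjusted p = 0.779).

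The abundant members of the class were not called in either direction. Tubb3, the beta-tubulin used to stain neurons, was at 75.3, 93.3 and 94.0 CPM in A, B and C and at 15.2, 96.7 and 54.1 CPM in D, E and F, with a log2 fold change of -0.66 ± 0.56 (adjusted p = 0.484), and -0.22 ± 0.24 without D (adjusted p = 0.639). Map2, a microtubule-associated protein of dendrites (ENSMUSG00000015222), was at 192, 219 and 176 CPM against 22.9, 127 and 110 CPM. Map2 was the one gene of the list whose groups did not overlap in the lower direction, with a log2 fold change of -1.17 ± 0.54 (adjusted p = 0.226). Without D its change was smaller, -0.72 ± 0.14, and was called (adjusted p = 0.0280). Both genes were lowest in D. Per kilobase of exon the mean level with SOX2 was 29.6 CPM for Tubb3 and 5.28 for Map2, against 1.39 for Nefl and 1.39 for Stmn2, and the mean level without SOX2 was 46.9 for Tubb3 and 11.9 for Map2, so the order of levels within the class was the same in both groups at its top.

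The 8 genes of vesicle release had 1 call, Rims2, and 4 of its 6 tested genes did not overlap between groups, all higher with SOX2 (against 18.2% of all genes tested), as did untested Syt1. Syt9 passed the filter through the tumours with SOX2. Rims2, a RIM protein that holds vesicles at the release site (ENSMUSG00000037386, chr15:39198261-39684372, plus strand), had 6, 2 and 0 counts in A, B and C and 169, 34 and 85 in D, E and F. This is 0.0990 ± 0.103 CPM (SD, n = 3) against 2.97 ± 1.82 CPM (SD, n = 3). All tumours with SOX2 lay above all tumours without it. The log2 fold change was 4.74 ± 0.89 (SE, adjusted p = 0.0380), and 4.22 ± 0.83 without D (adjusted p = 0.0329, and up to 0.128 without another tumour).

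Rims4, a short member of the same family (ENSMUSG00000035226), had 5, 4 and 0 counts against 399, 54 and 38. D stood far above E and F, at 11.2 CPM against 1.75 and 1.37 CPM. The wide spread left its log2 fold change of 5.23 ± 1.16 short of the threshold (adjusted p = 0.0555), and without D it was 3.62 ± 0.73 (adjusted p = 0.0342). Syt9, a calcium sensor of vesicle fusion, had 0, 2 and 0 counts against 81, 12 and 11, a pooled ratio of 39.7 with a counting interval of 10.7 to 332, and of 14.1 (3.49 to 124) without D (adjusted p = 0.0737; adjusted p = 0.116 without D). For these 3 genes D was the highest tumour.

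The other vesicle genes were low. Syp, synaptophysin of the vesicle membrane, had 7, 0 and 2 counts against 16, 11 and 10, and its groups did not overlap after scaling (log2 fold change 1.68 ± 0.85, adjusted p = 0.259). Syt1, the main calcium sensor of fast release, had 0 counts in A, B and C and 2, 4 and 3 counts in D, E and F, too few for the test. Chga, a granule protein of neuroendocrine cells, was present in both groups at 12 to 27 counts without SOX2 and 12 to 24 with it (log2 fold change -0.53 ± 0.48, adjusted p = 0.522). Rims1 had 0 to 5 counts without SOX2 and 1 to 8 with it (adjusted p = 0.948). Snap25 had counts in E only, 2 of them. Snap25 and Syt1 were thus at the limit of detection in the same tumours in which Rims2 and Rims4 had 34 to 399 counts.

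**Figure D2:**
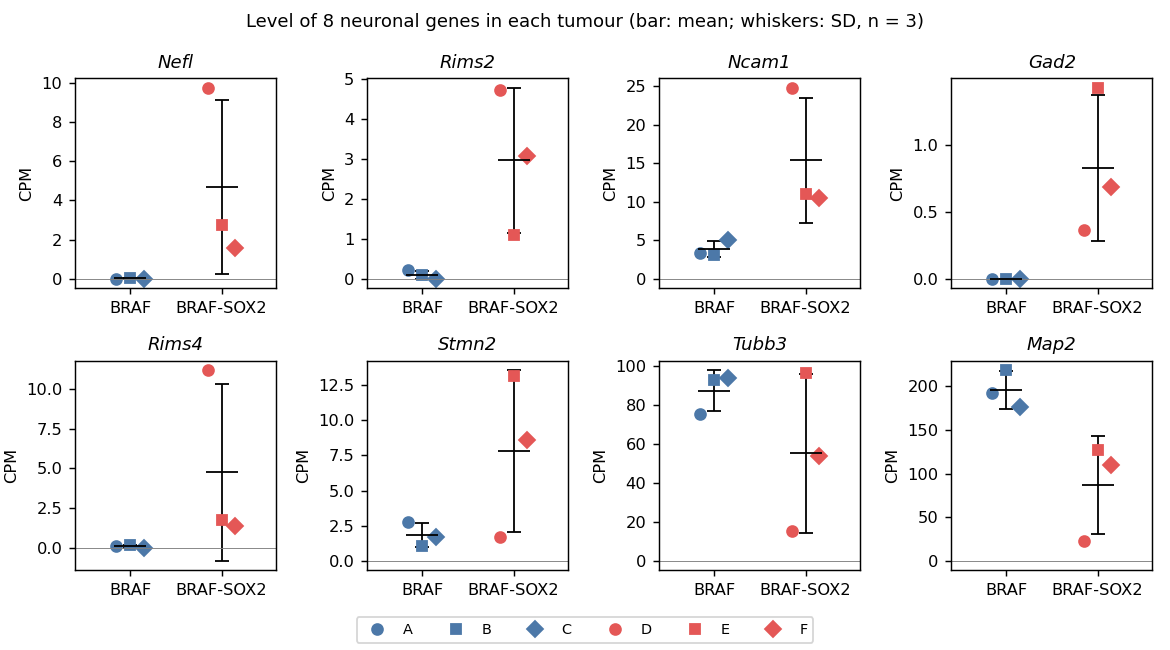
CPM of 8 neuronal genes in each tumour, with the mean (bar) and SD (whiskers, n = 3) of the Ivl:BRAFV600E tumours (BRAF, blue) and Ivl:BRAFV600E-SOX2LSL tumours (BRAF-SOX2, red). Tumour D is far above E and F for Nefl, Ncam1 and Rims4 and far below them for Stmn2, Tubb3 and Map2, and Gad2 is at 0 in all 3 Ivl:BRAFV600E tumours.

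Of the 3 adhesion genes, Ncam1 was called, and it was the only one of the 4 called genes with a clear level in both groups. Ncam1, the neural cell adhesion molecule, which muscle precursors and denervated muscle also express (ENSMUSG00000039542, chr9:49502136-49798925, minus strand), was at 3.41, 3.14 and 5.04 CPM in A, B and C and at 24.8, 11.0 and 10.4 CPM in D, E and F. The groups were apart, with D again highest. The log2 fold change was 2.00 ± 0.40 (adjusted p = 0.0434), and 1.47 ± 0.25 without D (adjusted p = 0.0210, and up to 0.175 without another tumour). Of the 20 skeletal-muscle markers 13 were called higher with SOX2, against 2.39% of all genes tested. Their sum was also higher in D, E and F than in A, B and C, but it was highest in E, not in D. The part of muscle in the Ncam1 result was not tested. The related Ncam2 had 1 count in each of A, B and C and 4, 3 and 4 counts in D, E and F, a pooled ratio of 2.80 with a counting interval of 0.740 to 15.6. Nlgn1, a postsynaptic neuroligin, had 0 to 3 counts.

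The 2 genes of GABA synthesis went apart. Gad2, the synaptic form of glutamate decarboxylase (ENSMUSG00000026787, chr2:22622205-22693874, plus strand), had 0 counts in all of A, B and C and 13, 44 and 19 counts in D, E and F, or 0.364, 1.43 and 0.686 CPM. E was the highest here and D the lowest. Against a floor of 3 counts in each Ivl:BRAFV600E tumour the mean was at least 6.46-fold higher with SOX2, and at least 8.26-fold without D (adjusted p = 0.0468; adjusted p = 0.0247 without D and up to 0.155 without another tumour). Gad1, the other glutamate decarboxylase gene, had 2 counts in B, 2 in E and 0 in the remaining tumours.

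None of the 5 glutamate receptor genes was called. Grik1, a kainate receptor subunit, came nearest, with 0, 0 and 1 counts in A, B and C and 27, 4 and 45 counts in D, E and F. Here F was highest and E, at 4 counts, hardly above the limit, and the pooled ratio was 58.0 with a counting interval of 10.1 to 2322, and 60.3 (10.3 to 2428) without D (adjusted p = 0.0662; adjusted p = 0.0750 without D). The kainate receptor subunit Grik2 had 2, 0 and 6 counts against 5, 6 and 7 (adjusted p = 0.683). The AMPA receptor subunit Gria1 had 5, 0 and 3 against 9, 0 and 2 (adjusted p = 0.986), and Gria2 had 4, 0 and 1 against 0 in all of D, E and F. Grin2b, an NMDA receptor subunit, had 0 counts in A, B and C and 2, 2 and 3 in D, E and F. The receptor class was therefore low throughout, with Grik1 in D and F as its highest values.

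Of the 5 transcription factors 2 had at most 1 count in any tumour without SOX2 and more in each tumour with it, and neither passed the test. Dbx2, a homeobox factor of the ventral neural tube, had 0 counts in A, B and C and 36, 13 and 5 in D, E and F, at least 4.20-fold higher against a floor of 3 counts per tumour and at least 2.35-fold higher without D (adjusted p = 0.0690; adjusted p = 0.0963 without D). Isl1, a LIM homeobox factor of motor and sensory neurons, had 0, 0 and 1 counts against 16, 20 and 3, a pooled ratio of 29.8 with a counting interval of 5.04 to 1206, and 28.3 (4.59 to 1165) without D (adjusted p = 0.0797; adjusted p = 0.113 without D). In both, F had the fewest counts of the tumours with SOX2. Pax6, a factor of neural progenitors and the eye, stayed at 1 to 7 counts over both groups (adjusted p = 0.994). Neurod1 and Otx2 were at 0 in all tumours with SOX2, where a count of 0 allows 0.0839 to 0.108 CPM.

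Nes, an intermediate filament of neural progenitors that vessels and muscle precursors also use, was at 10.5, 11.3 and 8.93 CPM in A, B and C and at 30.6, 10.4 and 8.63 CPM in D, E and F. Tumour D was high while E and F lay at the level of the tumours without SOX2. Its log2 fold change was 0.70 ± 0.47 (adjusted p = 0.382) and turned to -0.10 ± 0.19 without D (adjusted p = 0.786). Bex1, a small protein expressed in brain, showed the most uneven pattern, with 1, 0 and 0 counts against 113, 8 and 2, and D at 43.8 times the level of F. The pooled ratio of 93.9, with a counting interval of 16.5 to 3740, thus rested on D, without which it was 12.3 (1.75 to 534) (adjusted p = 0.104; adjusted p = 0.224 without D). Its paralog Bex2 had 4, 2 and 3 counts against 6, 9 and 0 (adjusted p = 0.880). Bex1 and Bex2 are alike in sequence and how reads that fit both were counted is not given in the sources used here, so their split is uncertain.

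**Figure D3:**
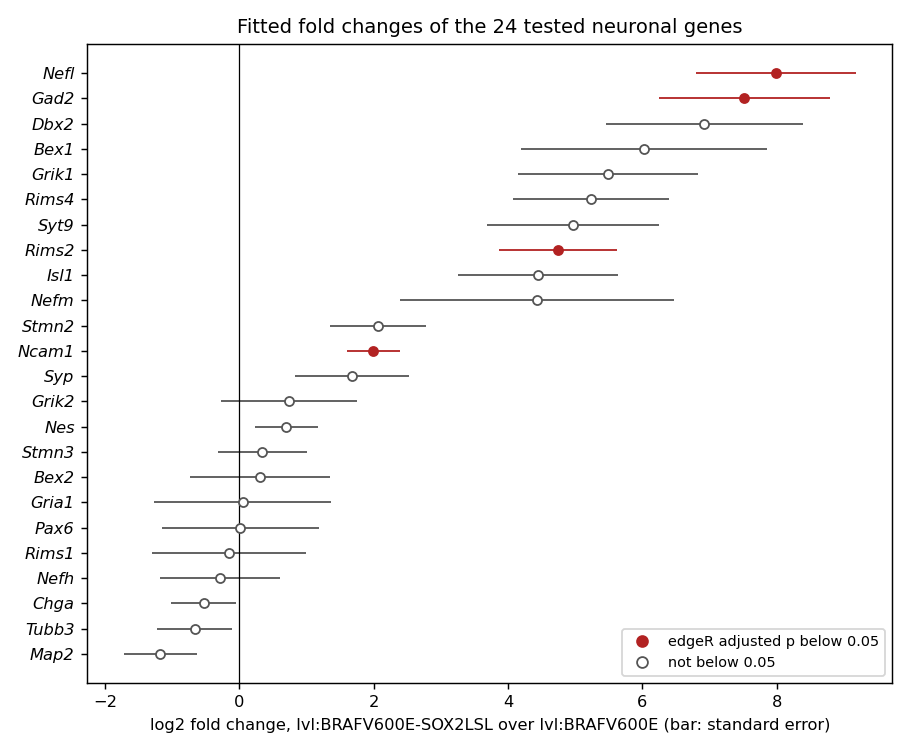
Fitted log2 fold change and its standard error for the 24 tested genes, Ivl:BRAFV600E-SOX2LSL over Ivl:BRAFV600E, with the 4 called genes filled in red. For genes with 0 to 2 counts without SOX2, such as Gad2 and Dbx2, the fitted value depends on the small prior count of the fit, so the text gives ratios of counts or lower bounds for them, and the lower end of the plot holds Chga, Tubb3 and Map2.

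Over the whole list 24 genes reached the 5 reads needed for the test and 12 did not. Genes that passed only through counts in the tumours with SOX2 had to be higher there, so the median log2 fold change of 1.84 among the tested genes (1.67 with genes at 3 counts or fewer in a whole group set to that floor), beside 0.04 over all genes tested, is a description. At an unadjusted p under 0.05, 11 genes were higher with SOX2: the 4 called genes with Stmn2, Rims4, Syt9, Grik1, Dbx2, Isl1 and Bex1. Of all genes tested 14.5% were higher and 11.2% lower by that measure, and 7 of the 11 (Nefl, Gad2, Syt9, Grik1, Dbx2, Isl1 and Bex1) had 3 counts or fewer in every tumour without SOX2. Of the 27 genes above 3 counts in any tumour, 14 did not overlap between groups, 13 of them higher with SOX2 and 1 lower. Syt1 and Ncam2 among them were not tested, which leaves 11 higher and 1 lower of the 24 tested genes, and 8 of the tested genes had 3 counts or fewer in every tumour without SOX2 and so passed the filter through the tumours with SOX2. Among all genes tested 34.2% did not overlap, 18.2% being higher and 16.0% lower. An exact permutation test of 3 against 3 tumours cannot go below p = 0.1 for a single gene. Among the 26 genes above 3 counts with SOX2, the highest tumour was D for 12, E for 9 and F for 5, many of them at a few counts, and whether the tumours with SOX2 differ in their profile was not tested.

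**Figure D4:**
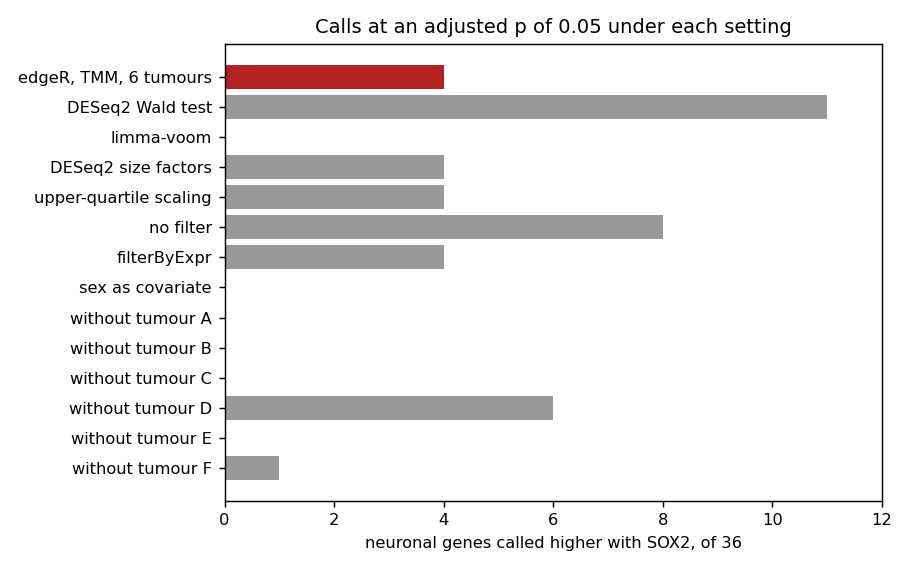
Number of the 36 neuronal genes called higher with SOX2 at an adjusted p of 0.05 in edgeR (red) and under each other setting (grey). It is 4 in the test reported here, 11 with DESeq2, 8 without a filter on low counts, 6 without tumour D, and 0 with limma-voom, with sex as a covariate and without tumour A, B, C or E.

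A wider list of 159 neuronal genes of the same roles, with no gene of the first list, gave 3 genes called higher and 2 called lower of 114 tested. The share called higher, 2.63%, is close to the 2.39% of all genes tested. Another 40 genes stayed at 3 counts or fewer in every tumour. The gene with the smallest p was Mapt, the microtubule-binding protein tau, with 31, 32 and 25 counts in A, B and C and 182, 218 and 165 in D, E and F (log2 fold change 2.28 ± 0.26, adjusted p = 0.0132). Rbfox1, a splicing factor of neurons and of muscle, had 23, 15 and 28 counts against 127, 179 and 122 (log2 fold change 2.29 ± 0.36, adjusted p = 0.0267). In both the tumours with SOX2 lay close together. The genes that fell were Gabbr2, a GABA-B receptor subunit, with 29, 27 and 35 counts against 6, 4 and 7 (log2 fold change -2.80 ± 0.44, adjusted p = 0.0271), and Vamp2, a vesicle fusion protein also used outside neurons, with 830, 599 and 561 counts against 540, 366 and 477 (log2 fold change -0.90 ± 0.17, adjusted p = 0.0379).

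By role, the wider list had 0 calls among 14 tested glutamate receptor and transporter genes, 19 adhesion genes, 9 transcription factors, 9 neuroendocrine genes and 4 relatives of the Bex and stathmin genes. At an unadjusted p under 0.05 edgeR had 19 of the 114 tested genes of the wider list higher and 7 lower, while 14.5% and 11.2% of all genes tested were so. Of the 26 transcription factors 17 stayed at 3 counts or fewer.

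Markers of cells that could carry neuronal transcripts were read beside these results. Of 16 markers of sensory and autonomic neurons 0 were called and 8 stayed at 3 counts or fewer, with Scn10a, the sodium channel of pain neurons, at 0 in every tumour. Their summed level was 3.47 to 4.53 CPM in A to C and 6.99, 13.9 and 17.3 CPM in D, E and F, led by Avil at 1.09 to 2.77 CPM without SOX2 and 2.18, 11.5 and 12.9 CPM with it and by Calcb at 0.693 to 1.77 CPM and 1.39 to 3.13 CPM. D had the lowest sum of these markers in its group, an order that Avil set, while Calcb was highest in D. Of those above 3 counts with SOX2, the highest tumour was D for 2, E for 2 and F for 4. Of the 26 genes of the list above 3 counts with SOX2, D was the highest tumour for 12, Nefl, Rims2, Rims4 and Ncam1 among them. D was the lowest tumour with SOX2 for Tubb3, Map2, Stmn2, Gad2 and Chga and, at a few counts, for Syt1, Grik2 and Pax6. How these orders relate to the marker sum was not tested.

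The 16 Schwann cell markers summed to 290 to 315 CPM without SOX2 and 268 to 360 CPM with it, and 0 were called. Of the 15 tested, 3 (Cnp, Ncmap and Egr2) were higher and 1 (S100b) lower without overlap between groups, beside 18.2% and 16.0% of all genes tested. Erbb3 (215 to 238 CPM and 138 to 265 CPM) and Mbp (39.2 to 42.4 CPM and 34.0 to 53.5 CPM) made up most of the sum. Of 10 Merkel cell markers Krt20 and Piezo2 were called higher, and the sum was 17.0 to 27.4 CPM without SOX2 and 352, 49.4 and 61.6 CPM in D, E and F. Krt8 was at 0 to 1.05 CPM without SOX2 and at 106, 8.65 and 2.31 CPM in D, E and F, and Piezo2 at 9.69 to 12.5 CPM and 19.1 to 33.0 CPM. The defining Merkel cell factors Atoh1 and Pou4f3 had at most 1 and 2 counts in any tumour and 0 in all tumours with SOX2.

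The skeletal-muscle sum was led by Ttn, at 0.785 to 8.50 CPM without SOX2 and at 1932, 2009 and 509 CPM in D, E and F, and by Neb, at 1.66 to 4.94 CPM and at 242, 478 and 85.1 CPM, with Tnnc2 at 3 counts or fewer throughout. Of 8 genes of the muscle side of the neuromuscular synapse only Chrna1 was called higher, and the sum was 43.3 to 49.2 CPM without SOX2 and 31.1 to 61.5 CPM with it, most of it Lrp4 (38.0 to 45.0 CPM and 18.1 to 50.8 CPM), with Chrnb1 at 0.760 to 0.955 CPM and 1.77 to 8.20 CPM. Melanocyte markers summed to 2.31 to 10.4 CPM and 9.59 to 10.5 CPM (Mitf at 1.02 to 5.84 CPM and 4.98 to 7.05 CPM, Pmel at 0.554 to 1.76 CPM and 2.15 to 2.53 CPM). Central glia markers summed to 11.1 to 14.2 CPM and 16.6 to 31.8 CPM (Aldh1l1 at 7.50 to 8.79 CPM and 11.6 to 27.1 CPM, Slc1a3 at 2.63 to 5.13 CPM and 3.67 to 6.10 CPM), with 0 called in either list. Keratinocyte markers had 0 calls, with Krt1 at 32201 to 45416 CPM without SOX2 and at 1010, 11874 and 13012 CPM in D, E and F and Krt14 at 13436 to 31248 CPM and 6528 to 21151 CPM. Krt10 was also lower, at 28863 to 36342 CPM without SOX2 and 425 to 7214 CPM with it. Krt6a was lower on average, at 7392 to 14739 CPM and 2430 to 7971 CPM. Ivl overlapped between the groups, at 40.4 to 208 CPM and 22.0 to 114 CPM. The other 3 did not follow them: Krt5 was at 2562 to 2668 CPM and 2371 to 3900 CPM. Trp63 was at 261 to 297 CPM and 281 to 321 CPM, and Dsg3 at 736 to 880 CPM and 911 to 1586 CPM. The part of these cell types in the neuronal genes was not tested.

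**Figure D5:**
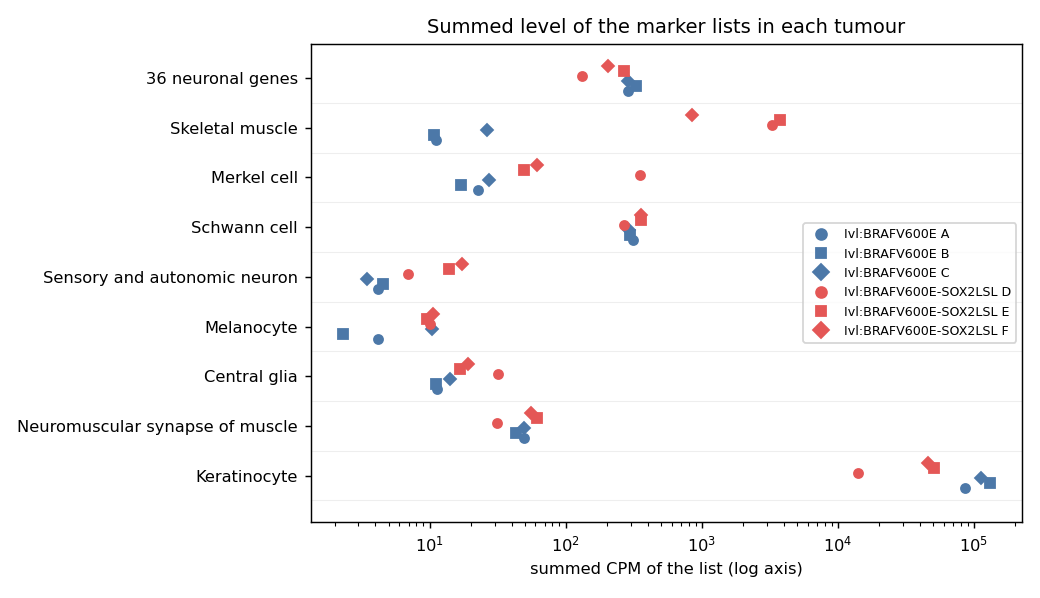
Summed CPM, on a log axis, of the 36 neuronal genes and of 8 marker lists in each tumour. The sum of the neuronal genes is mostly Map2 and Tubb3 and is lowest in D at 131 CPM against 287 to 329 CPM without SOX2. This sum and the keratinocyte sum are lower in every tumour with SOX2. The skeletal-muscle, Merkel cell, central glia and sensory and autonomic neuron sums are higher in every tumour with SOX2, the last at 17.3 CPM at most. The other sums overlap.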

How the data were processed

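The authors checked the reads with FastQC 0.11.8, removed adaptors with TrimGalore, used HISAT2 2.1.0 for alignment to GRCm38 and counted reads per gene with featureCounts (Subread 1.6.3). The deposited values are raw read counts per gene, without normalisation or pooling. Strand and multimapping settings are not given in the sources used here. Of the 7 columns, 6 were tied to a genotype, and by the labels the remaining 1 would be an Ivl:BRAFV600E tumour. Its name has the prefix of the columns with SOX2, and no source used here lists its mouse, so it was not used. Each library came from another mouse, and with 3 tumours per group p-values rest on the spread between few animals.

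A gene entered the test with 5 or more reads in any tumour. Counts were scaled by TMM and compared by genotype with the quasi-likelihood test of edgeR 4.0.16 (R 4.3.3), two-sided, with Benjamini-Hochberg adjustment over all genes tested at 0.05. CPM are per 1 M counts on genes after TMM. Ratios of pooled counts have exact (Clopper-Pearson) 95% intervals. Coordinates and exon overlaps were taken from GENCODE M21 (GRCm38) and promoter windows from RefSeq (GRCm38.p6). The windows were printed up to the start of the GENCODE gene or, for Dbx2, whose window lies inside that gene, as 30 bases over the matches. On simulated counts for 22924 genes of this comparison the test recovered 69 of 100 genes changed by 2 on the log2 scale and 96 of 100 changed by 3, with 8 false calls. The changed genes were drawn only from genes above a set mean count, and every gene was given the same spread. Many genes of the list lie below that mean, so these shares do not apply to them. Python 3.11.15 with pandas 2.3.3 was used for tables and matplotlib 3.10.9 for plots.

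The alternatives were DESeq2 1.42.0, limma 3.58.1 (voom), DESeq2 size factors, upper-quartile scaling, no filter, filterByExpr, sex as a covariate and each tumour left out in turn. The genes named are all 36 listed genes, from each role of the wider list the 2 called genes of lowest p per direction, where there were any, the 2 most abundant genes of each marker list, Sox2 and EGFP. Other marker and wider-list genes named (Scn10a, Cnp, Ncmap, Egr2, S100b, Krt5, Krt6a, Krt10, Ivl, Trp63, Dsg3, Krt20, Atoh1, Pou4f3, Tnnc2, Chrna1 and those of the closing section) were chosen after their values were seen. Some results under this rule for the wider list are not reported here. The listed genes and all gene lists were chosen with earlier results of these data known.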

Additional observations from a re-analysis of the deposited data

How the results depend on the processing

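No paired analysis was possible because the columns carry no replicate number. The number of all genes called, 954, was 3653 with DESeq2, 1759 without a filter, 228 with sex as a covariate and 22 to 1575 with 1 tumour left out. The 4 neuronal genes called higher became 11 with DESeq2, 8 without a filter, 0 with limma-voom, 0 with sex as a covariate and 0 to 6 with 1 tumour left out, and the 0 called lower became 0 to 1, Map2 without D. With filterByExpr the same 4 genes were called of 12 tested. Adjusted p over the alternatives ranged from 2.96e-07 to 0.126 for Nefl, 2.33e-06 to 0.128 for Rims2, 7.92e-05 to 0.175 for Ncam1 and 1.53e-04 to 0.155 for Gad2. The wider list's 3 higher and 2 lower became 11 and 4 with DESeq2, 1 and 0 with sex as a covariate, and 0 to 3 each with 1 tumour left out. The count of 14 genes without overlap was 14 to 19 with 1 tumour left out. Log2 fold changes near 0 changed sign for low genes: Rims1 was 0.082 with limma-voom, Gria1 was -0.31 with limma-voom, -0.071 with upper-quartile scaling and -0.22 with sex as a covariate, Pax6 was -0.44, -0.064 and -0.017 under the same settings, and Bex2 was -0.44 with limma-voom and -0.65 with sex as a covariate. With 1 tumour left out the ranges crossing 0 were -1.83 to 0.18 for Nefh, -1.22 to 0.57 for Rims1, -1.50 to 0.61 for Gria1, -0.30 to 0.76 for Pax6, -0.10 to 1.01 for Nes and -0.47 to 0.86 for Bex2. The cause was not tested. Depth limits statements on the 12 untested genes.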

Other observations

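Of the 9 neuroendocrine genes of the wider list above 3 counts in any tumour, the highest tumour with SOX2 was D for 2, E for 2 and F for 5. Those of D and other genes with an unusual value there were named after their values were seen. Scg2, a granule protein of neuroendocrine cells, had 105 counts in D and 0 in each of the other tumours (edgeR adjusted p = 0.243). Bex4, a relative of Bex1 on the same chromosome, had 49 counts in D, 1 in E and 0 elsewhere (adjusted p = 0.232). Cpe, a carboxypeptidase that trims neuropeptide precursors, had 1828, 501 and 1043 counts in A, B and C and 13450, 2490 and 3242 in D, E and F (log2 fold change 2.09 ± 0.63, adjusted p = 0.102). Otx1, a homeobox factor of the forebrain that skin tumours of both groups also held, had 920, 761 and 719 counts in A, B and C, 939 and 723 in E and F, and 1 count in D. Rest, the repressor that binds RE1, had 1436, 1152 and 1057 counts without SOX2 and 3678, 2009 and 1884 with it (log2 fold change 0.63 ± 0.19, adjusted p = 0.104).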
